A study of Mus musculus with 6 samples.

Results

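The tumour necrosis factor (TNF) superfamily was taken as the 41 genes with protein-coding transcripts whose symbols begin with Tnfsf or Tnfrsf followed by a number, together with Tnf, Lta, Ltb, Ltbr, Fas, Fasl, Cd40, Cd40lg, Cd27 and Cd70. They comprised 17 ligands and 24 receptors, out of 54309 genes in the deposited tables. The RNA came from left sciatic nerves, distal end, of female and male C57BL/6 mice aged 6 to 8 weeks, taken 24 h after surgery, and the study asked how the sexes differ in the response to axotomy, in which a nerve is cut through. Each sex had 3 libraries, and each library pooled the tissue of 2 animals. The treatment label of all 6 libraries is axotomy, whereas the written procedure describes an exposed nerve that was not cut (a sham operation), so the injury state of both groups is uncertain. No nerve of an animal without surgery was analysed here.

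TNF superfamily ligands are mostly membrane proteins that act as trimers, on the cell surface or after release by proteases. Some of their receptors carry a death domain, which can start caspase activation. TRAF adaptors feed into NF-kappaB and MAP kinase signalling, and a few decoy receptors bind ligand without signalling. In injured peripheral nerve, TNF is made by Schwann cells and macrophages early in Wallerian degeneration, the breakdown of the severed axon and its myelin.

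The libraries held 55272138 to 77610593 estimated reads, of which the 41 genes took 0.0859% to 0.105%. A count of 0 in a library allows up to 3 reads, which is at most 0.0543 CPM (reads scaled to the size of the library) and covers counting error only. The Schwann cell marker Sox10 was at 171, 169 and 204 CPM in female and 275, 217 and 206 CPM in male libraries, and S100b at 104, 101 and 149 CPM in female and 236, 197 and 197 CPM in male libraries, both lower in all female libraries. The summed level of 6 myelin genes was 11183 to 17549 CPM in female and 23018 to 30978 CPM in male libraries, without overlap. Markers of fibroblasts, of dendritic, B, T and NK cells were also lower in all female libraries, and the part of cell makeup in the results was not tested. Skeletal muscle markers stood apart in 2 libraries, with a summed level of 1407 CPM in female 2 and 749 CPM in male 1, against 4.20 to 19.1 CPM in the other 4. For members, estimates that these 2 libraries move are therefore also given without them. Estimates of single genes outside the selection are given over all 6 libraries only.

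Receptor RNA far exceeded ligand RNA. Summed over the family in TPM, a level scaled by transcript length, receptors had 671, 699 and 615 TPM in female libraries 1 to 3 and 581, 634 and 633 TPM in male libraries 1 to 3. Ligands had 121, 135 and 124 TPM in the female libraries and 113, 121 and 111 TPM in the male ones. The ratio of receptor to ligand TPM was thus 4.96 to 5.55 in female and 5.13 to 5.70 in male nerves, and the sexes overlapped.

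The same 4 receptors led in every library and took 72.9% to 79.9% of the receptor TPM. Tnfrsf12a, which encodes Fn14, the receptor of the ligand TWEAK, had 184, 171 and 180 TPM in female and 175, 171 and 168 TPM in male libraries. Tnfrsf1a, the death-domain receptor of TNF, had 177, 169 and 157 TPM in female and 162, 172 and 187 TPM in male libraries. These receptors overlapped in level and exchanged first place in males 2 and 3. Tnfrsf1b, the TNF receptor without a death domain, followed with 84.1, 105 and 69.4 TPM in female and 58.3, 74.2 and 64.0 TPM in male libraries. Ltbr, the lymphotoxin beta receptor, had 71.3, 64.2 and 61.8 TPM in female and 68.8, 66.9 and 67.3 TPM in male libraries, which overlaps the range of Tnfrsf1b.

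Tnfsf12, which encodes TWEAK, was the most abundant ligand in all 6 libraries. It had 42.03, 48.0 and 40.99 TPM in female and 44.7, 48.2 and 45.8 TPM in male libraries, with overlap. This was 33.1% to 35.5% of the ligand TPM in females and 39.5% to 41.3% in males, a share that also depends on the other ligands. Below Tnfsf12 lay Tnfsf13, Tnfsf14 and Tnf, with mean levels of 15.1, 14.2 and 11.8 TPM over the 6 libraries, whose ranges overlapped. Of the members under 1 TPM on average, Tnfrsf17, Lta, Cd40lg and Cd70 did not pass the filter on low counts, with at most 11, 11, 4 and 1 reads in any library. Cd70, the ligand of Cd27, had no read in females 1 and 3 or in males 1 and 3.

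**Figure D1:**
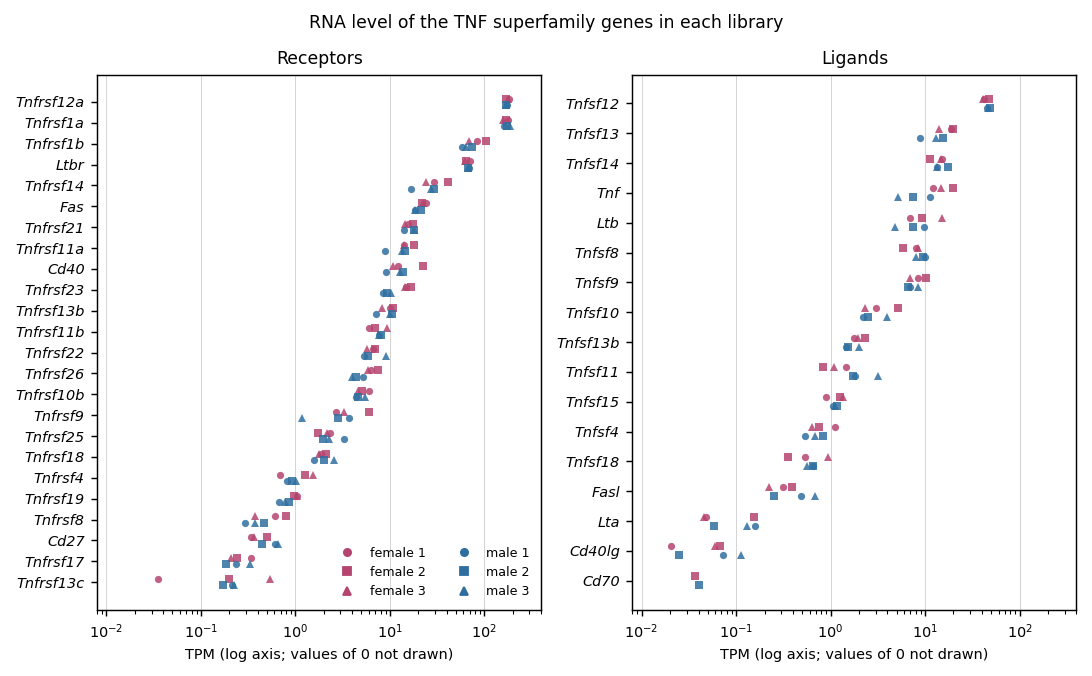
TPM of each receptor (left) and ligand (right) in each library on a log axis, ordered by the mean over 6 libraries; colours mark the sex and symbols the library number. Tnfrsf12a and Tnfrsf1a lie between 157 and 187 TPM in all 6 libraries, and Cd70 is at 0 in 4 of them.

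Some of these summed levels rest on short annotated transcripts, because TPM divides by length. A coding transcript of 394 nt took 7.76% to 13.1% of Tnfrsf14 reads but 30.2% to 43.4% of its protein-coding TPM. A coding transcript of 668 nt took 9.60% to 19.3% of Cd40 reads and 34.6% to 55.1% of its protein-coding TPM. The order of Tnfrsf14 and Cd40 among the receptors therefore depends on how Salmon, the authors' quantification tool, assigned those reads.

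No member of the superfamily passed an adjusted p of 0.05 between the sexes. Of the 41 genes, 37 passed the low-count filter and were tested by edgeR's quasi-likelihood test across all genes, and their smallest Benjamini-Hochberg adjusted p was 0.155, for Tnfrsf23. In the same fit 20 of 18916 genes were called (0.106%), 3 higher in female nerves (0.0159%) and 17 higher in male nerves (0.0899%). At an unadjusted p under 0.05, 5 members were higher in female nerves and 1 in male nerves, against 5.21% and 8.50% of all genes. DESeq2 called 2 members, Tnf and Tnfrsf23, both higher in female nerves, while limma-voom and limma on log2 TPM called none. The share of DESeq2 over all genes was 1.08% on the female side and 3.01% on the male side. On counts simulated with edgeR's own dispersions, DESeq2 called more unchanged genes than edgeR, 52 against 13. DESeq2 also recovered more of the changes of 1 in log2, 67.1% against 50.7%. Because the simulation rests on edgeR's fit, it cannot decide whether Tnf and Tnfrsf23 were called rightly.

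Of the 37 tested members 23 (62.2%) were fitted higher in female nerves and 14 lower, by the sign of the log2 fold change, which is female minus male throughout. Their median was 0.16. Among all genes 52.8% were above 0, and the median was 0.01. Ligands were above 0 in 8 of 14 cases (median 0.12) and receptors in 15 of 23 (median 0.16). Without female 2 and male 1 the members' median was 0.07. All female libraries lay above all male ones for 4 members, Tnf, Tnfrsf19, Tnfrsf23 and Tnfrsf26, which is 10.8% against 8.94% of all genes. The reverse held for 1 member, Tnfsf11, which is 2.70% against 11.7% of all genes.

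**Figure D2:**
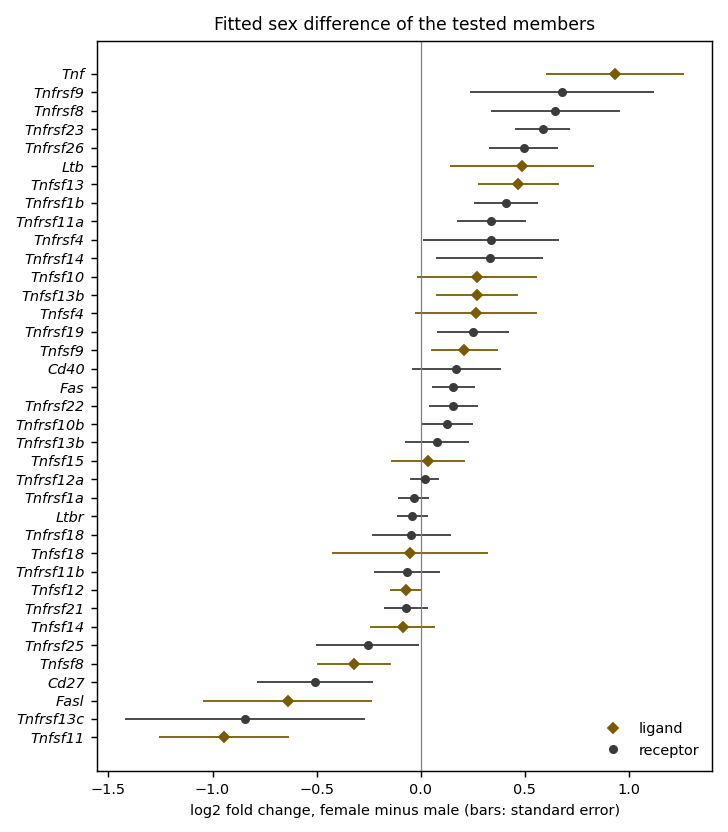
Log2 fold change (female minus male, horizontal axis) of the 37 tested members by edgeR, with bars of 1 standard error; diamonds are ligands and circles receptors. Estimates run from -0.94 for Tnfsf11 to 0.93 for Tnf, and none passed an adjusted p of 0.05.

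Among the ligands, Tnf had the largest fitted difference toward the female side. It was at 12.3, 19.7 and 15.2 CPM in female libraries 1 to 3, against 12.1, 7.50 and 5.04 CPM in male libraries 1 to 3. Every female library was above every male one, although female 1 and male 1 differed by little. Tnf averaged 15.8 ± 3.75 CPM in female and 8.23 ± 3.61 CPM in male nerves (SD, n = 3 each). The log2 fold change was 0.93 (SE 0.33), with an adjusted p of 0.299 by edgeR and 0.0403 by DESeq2, in a range of 0.0403 to 0.609 over all alternatives. Leaving out 1 library at a time gave 0.69 to 1.34 (edgeR adjusted p 0.277 to 0.526), and leaving out female 2 and male 1 gave 1.14 (edgeR adjusted p 0.200). Schwann cells, neutrophils and macrophages can all make TNF. The summed Schwann cell markers were lower in all female libraries, at 910, 791 and 1073 CPM against 1479, 1124 and 1107 CPM in male ones. The summed neutrophil markers were at 1601, 878 and 1571 CPM in female and 1257, 1034 and 643 CPM in male libraries, and the macrophage markers at 1736, 2194 and 1503 CPM in female and 1125, 1783 and 1811 CPM in male ones. Their part in the Tnf level was not tested, and in whole tissue a change in the number of cells of a type cannot be told apart from a change of RNA per cell.

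Tnf lies between Ltb and Lta, its neighbours among protein-coding genes in the GENCODE M21 annotation, in the class III region of the major histocompatibility complex on chromosome 17. Ltb, which encodes the membrane anchor of the lymphotoxin heterotrimer, was at 4.67, 6.28 and 10.1 CPM in female and 6.62, 5.11 and 3.29 CPM in male libraries. The sexes overlapped, and female 3 was highest and male 3 lowest. The log2 fold change was 0.49 (SE 0.35), adjusted p 0.593 by edgeR; it was 0.12 without female 3 and reached 0.75 without male 1, with 0.82 when female 2 and male 1 were both left out. Lta, the soluble lymphotoxin, had 3, 9 and 3 reads in female and 11, 3 and 6 reads in male libraries, too few for the test. Per transcript length, the means over the 6 libraries were 11.8 TPM for Tnf, 8.85 TPM for Ltb and 0.0994 TPM for Lta.

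The 250 bases before the start of each of these 3 genes are shown because they let a reader set the starts of these neighbours, which differ in level, side by side. They are RefSeq sequences of build GRCm38.p6, printed 5′ to 3′ on the strand of the gene, at chr17:35202008-35202257 (minus strand) for Tnf, chr17:35194257-35194506 (plus strand) for Ltb and chr17:35205352-35205601 (minus strand) for Lta. Capitals mark matches to the NF-kappaB consensus motif, to the AP-1 motif TGANTCA or to the TATA box TATAAA, searched on both strands.
Tnf: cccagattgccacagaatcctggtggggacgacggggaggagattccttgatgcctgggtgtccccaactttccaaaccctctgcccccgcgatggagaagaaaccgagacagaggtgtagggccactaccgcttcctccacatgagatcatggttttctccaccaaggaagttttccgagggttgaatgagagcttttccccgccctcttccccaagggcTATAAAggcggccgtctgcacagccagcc
Ltb: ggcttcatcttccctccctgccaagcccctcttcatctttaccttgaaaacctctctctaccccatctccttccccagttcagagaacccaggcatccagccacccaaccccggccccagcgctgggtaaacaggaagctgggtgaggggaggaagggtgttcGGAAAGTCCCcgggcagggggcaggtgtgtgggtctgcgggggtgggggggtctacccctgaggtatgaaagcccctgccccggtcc
Lta: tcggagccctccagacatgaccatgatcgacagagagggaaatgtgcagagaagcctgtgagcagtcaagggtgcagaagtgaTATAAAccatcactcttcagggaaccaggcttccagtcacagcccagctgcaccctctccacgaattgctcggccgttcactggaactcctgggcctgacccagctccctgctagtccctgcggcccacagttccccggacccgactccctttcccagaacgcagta

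Tnf holds TATAAA from 29 to 24 bases before its start, Ltb a match to the NF-kappaB consensus from 87 to 78 bases before it, and Lta TATAAA from 167 to 162 bases before it. No AP-1 match lies in these windows. Of 32851 RefSeq promoters of the same length, 3.90% held the NF-kappaB consensus, 6.75% TGANTCA and 12.4% TATAAA. Among 35 promoters of 31 members found in the table, 3 held the NF-kappaB consensus (Ltb, Tnfrsf8 and Tnfrsf9), 6 held TGANTCA and 6 held TATAAA. No matches overlapped in the sequences shown. A match is a run of letters, not a shown binding site.

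The receptors of TNF differed from one another in their spread between libraries. Tnfrsf1a was at 245, 233 and 221 CPM in female and 232, 236 and 247 CPM in male libraries, with a log2 fold change of -0.03 (SE 0.07). Tnfrsf1b, which is found mostly on immune and endothelial cells, was at 217, 268 and 178 CPM in female and 157, 187 and 154 CPM in male libraries. Only male 2 reached into the female range. Its log2 fold change was 0.41 (SE 0.15), adjusted p 0.311 by edgeR, and 0.22 without female 2 and male 1. Tnfrsf1a therefore exceeded Tnfrsf1b in TPM by 1.61 to 2.27 times in female and 2.31 to 2.93 times in male libraries; this ratio was read after its values were seen. Ltbr was at 104, 96.0 and 92.8 CPM in female and 105, 99.4 and 97.0 CPM in male libraries, a log2 fold change of -0.04 (SE 0.07) with overlapping sexes.

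**Figure D3:**
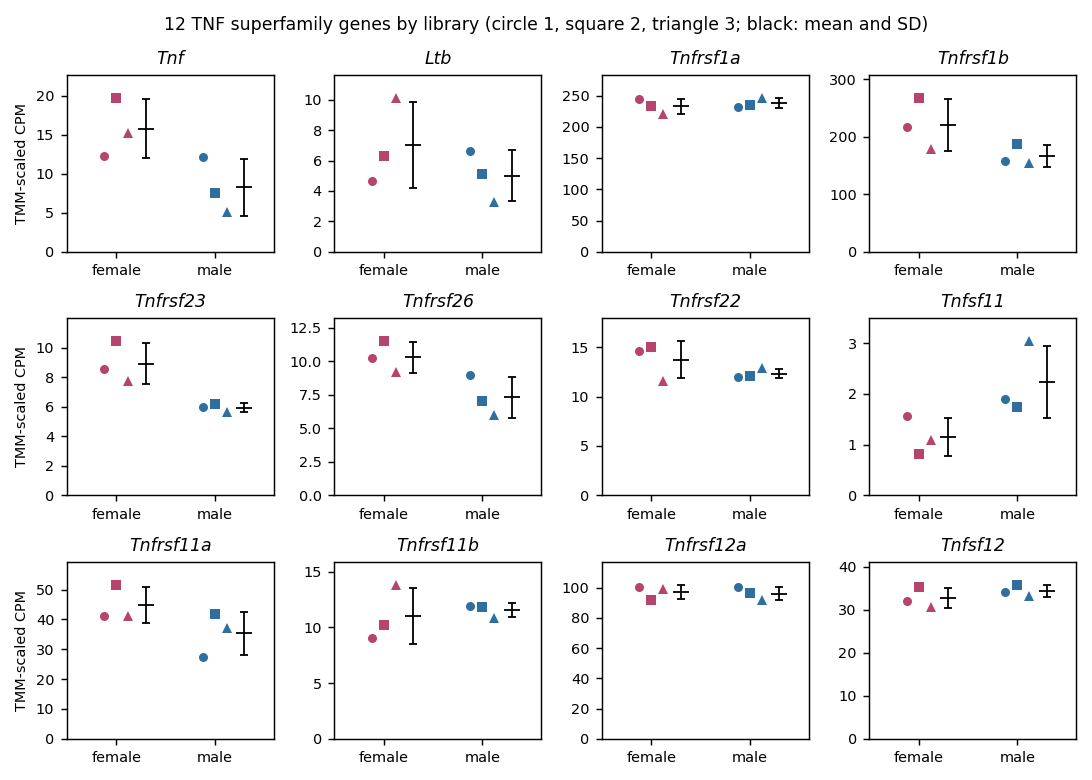
TMM-scaled CPM of 12 members in each library, female left and male right in each panel, with the mean and SD over 3 libraries in black; each vertical axis starts at 0. Tnf, Tnfrsf23 and Tnfrsf26 are higher in all female libraries, Tnfsf11 in all male libraries, and Tnfrsf12a, Tnfrsf1a and Tnfsf12 overlap closely.

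The smallest p among the members belonged to Tnfrsf23, a mouse decoy receptor that binds the death ligand TRAIL without a functional death domain. Its protein-coding transcripts were at 8.53, 10.4 and 7.74 CPM in female and 5.96, 6.21 and 5.603 CPM in male libraries. The mean was 8.90 ± 1.38 CPM in female and 5.92 ± 0.303 CPM in male nerves (SD, n = 3 each). The female libraries all lay above the male ones, 1.502 times higher in the fit (log2 fold change 0.59, SE 0.13). The adjusted p was 0.155 by edgeR and 0.00867 by DESeq2, in a range of 0.00867 to 0.392 over all alternatives. The difference was 0.46 to 0.68 when 1 library was left out at a time and 0.47 (edgeR adjusted p 0.329) without female 2 and male 1.

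Tnfrsf23 lies on chromosome 7 beside Tnfrsf22 and Tnfrsf26. Tnfrsf26, an orphan receptor of the mouse, was at 10.2, 11.5 and 9.19 CPM in female and 8.95, 7.00 and 5.95 CPM in male libraries. The sexes did not overlap, and the log2 fold change was 0.49 (SE 0.16), adjusted p 0.253 by edgeR. Tnfrsf22, the other decoy receptor for TRAIL, lies between them and was at 14.6, 14.99 and 11.6 CPM in female and 12.0, 12.1 and 12.9 CPM in male libraries, with overlap. Its log2 fold change was 0.16 (SE 0.12) on counts and -0.03 by limma on log2(TPM + 1), and 0.08 on counts without female 2 and male 1. In male 3 a coding transcript of 564 nt took 5.12% of Tnfrsf22 reads but 36.5% of its TPM. That transcript had 0 reads in every other library, and its part in the TPM estimate was not tested. In GENCODE M21 transcripts, 37.9% of the sequence stretches of 31 bases in Tnfrsf23 also occur in Tnfrsf22, and 25.5% of those of Tnfrsf22 in Tnfrsf23, so the split of reads between these genes is uncertain.

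Most Tnfrsf23 reads did not belong to protein-coding transcripts. A transcript of 3353 nt, annotated as a target of nonsense-mediated decay, took 71.7%, 67.2% and 69.9% of the gene's reads in female and 74.3%, 69.3% and 73.6% in male libraries. The coding transcript of 1476 nt took 25.0%, 30.5% and 25.9% in female and 24.3%, 28.9% and 23.7% in male libraries. The shares overlapped between the sexes. Summed over all transcripts, the log2 fold change of Tnfrsf23 was 0.45 (SE 0.10), adjusted p 0.135 by edgeR.

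**Figure D4:**
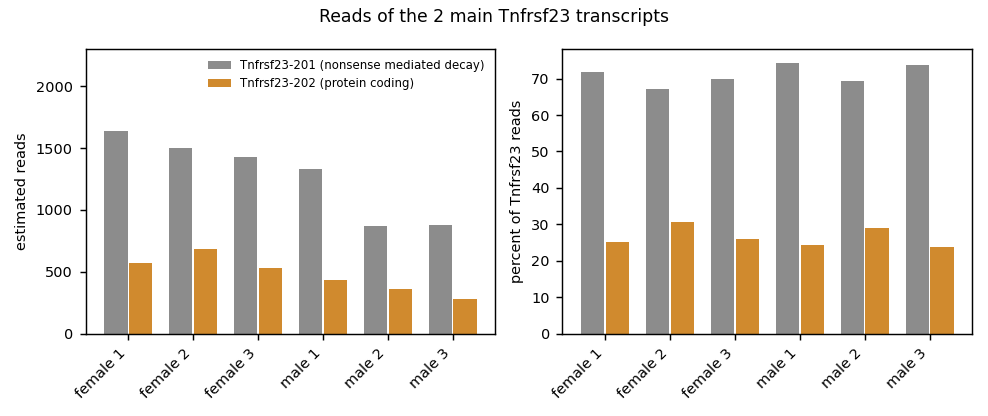
Estimated reads (left) and percent of all Tnfrsf23 reads (right) of its nonsense-mediated decay transcript and its main protein-coding transcript in each library; both axes start at 0. The decay transcript takes 67.2% to 74.3% of the reads in every library, and library sizes differ, so the left panel is not scaled for depth.

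The ligand of these decoys, Tnfsf10 (TRAIL, which triggers apoptosis), was at 8.00, 12.4 and 6.03 CPM in female and 6.26, 6.29 and 9.35 CPM in male libraries, a log2 fold change of 0.27 (SE 0.29). Its signalling receptor Tnfrsf10b was at 11.7, 9.69 and 8.88 CPM in female and 9.03, 8.81 and 9.86 CPM in male libraries, a log2 fold change of 0.13 (SE 0.12). Both overlapped between the sexes. Without female 2 and male 1 the estimate for Tnfsf10 was -0.15.

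Tnfsf11 (RANKL, known best for driving osteoclast formation) was the 1 member with all male libraries above all female ones. It was at 1.56, 0.814 and 1.09 CPM in female and 1.899, 1.74 and 3.04 CPM in male libraries. It averaged 1.153 ± 0.378 CPM in female and 2.23 ± 0.707 CPM in male nerves (SD, n = 3 each). The log2 fold change was -0.94 (SE 0.31), with an adjusted p of 0.250 by edgeR and 0.0778 by DESeq2, in a range of 0.0778 to 0.468 over all alternatives. The estimate was -1.22 to -0.65 with 1 library left out at a time. Its receptor Tnfrsf11a (RANK) was at 41.2, 51.6 and 41.2 CPM in female and 27.4, 41.7 and 36.98 CPM in male libraries. Male 2 overlapped the female range, and the log2 fold change was 0.34 (SE 0.16), adjusted p 0.424 by edgeR, but 0.07 without female 2 and male 1. Tnfrsf11b, which encodes the soluble decoy osteoprotegerin, was at 9.01, 10.3 and 13.8 CPM in female and 11.9, 11.9 and 10.8 CPM in male libraries, a log2 fold change of -0.07 (SE 0.16). In TPM, Tnfsf11 amounted to 0.242, 0.117 and 0.117 times Tnfrsf11b in female and 0.240, 0.213 and 0.418 times in male libraries, so that female 1 lay above males 1 and 2.

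Estimates near 0 were found for the most abundant ligand and its receptor. Tnfrsf12a, which is induced in many injured tissues, was at 101, 92.1 and 99.4 CPM in female and 100.2, 96.3 and 92.0 CPM in male libraries, a log2 fold change of 0.02 (SE 0.07). Tnfsf12 was at 32.0, 35.3 and 30.7 CPM in female and 34.0, 35.8 and 33.1 CPM in male libraries, a log2 fold change of -0.07 (SE 0.08). Across the 6 libraries Tnfrsf12a exceeded Tnfsf12 in TPM by 3.57 to 4.39 times in females and 3.55 to 3.91 times in males. Tnfsf12 shares 47.4% of its 31-base stretches with Tnfsfm13, a read-through gene that joins Tnfsf12 and Tnfsf13 and stood at 18.0 to 21.7 CPM in female and 20.97 to 24.0 CPM in male libraries, so reads of all 3 genes are partly assigned by estimate.

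Of the other death-domain receptors, Fas was at 15.3, 13.7 and 13.2 CPM in female and 13.2, 13.2 and 11.4 CPM in male libraries, a log2 fold change of 0.16 (SE 0.10) with overlapping sexes. Its ligand Fasl, made by cytotoxic T and NK cells, was at 0.339, 0.407 and 0.235 CPM in female and 0.554, 0.265 and 0.709 CPM in male libraries, a log2 fold change of -0.64 (SE 0.41). The T and NK cell markers summed to 6.67 to 8.02 CPM in female and 10.4 to 16.3 CPM in male libraries, and their part in the Fasl level was not tested. Tnfrsf21 (death receptor 6), which in mouse neurons is linked to axon degeneration, was at 34.2, 38.3 and 31.9 CPM in female and 32.2, 39.6 and 37.98 CPM in male libraries, a log2 fold change of -0.07 (SE 0.10). Tnfrsf25, a receptor of T cells, was at 2.36, 1.73 and 2.16 CPM in female and 3.35, 1.94 and 2.15 CPM in male libraries, a log2 fold change of -0.25 (SE 0.25), or 0.15 without female 2 and male 1. Its ligand Tnfsf15 was at 2.89, 3.94 and 4.35 CPM in female and 3.71, 3.82 and 3.38 CPM in male libraries, a log2 fold change of 0.04 (SE 0.18).

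The BAFF and APRIL system keeps B cells and plasma cells alive. Tnfsf13 (APRIL) was at 15.6, 16.0 and 11.6 CPM in female and 7.90, 12.7 and 10.7 CPM in male libraries. Female 3 lay below male 2, the log2 fold change was 0.47 (SE 0.20), adjusted p 0.353 by edgeR, and it was 0.23 without female 2 and male 1. Of the 31-base stretches of Tnfsf13, 58.4% also occur in Tnfsfm13. That gene was at 18.0, 21.7 and 20.4 CPM in female and 24.0, 21.4 and 20.97 CPM in male libraries. Male 1 was thus lowest for Tnfsf13 and highest for Tnfsfm13. The split of reads between these genes is uncertain, and its part in the Tnfsf13 estimate was not tested. Tnfsf13b (BAFF) had a log2 fold change of 0.27 (SE 0.20), or 0.03 without those 2 libraries, and was at 2.64, 3.65 and 3.12 CPM in female and 2.14, 2.59 and 3.09 CPM in male libraries. Transcripts not annotated as protein coding took 47.8% to 57.7% of Tnfsf13b reads in female and 48.4% to 54.8% in male libraries.

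The receptors of that system ranged from well detected to almost absent. Tnfrsf13b (TACI) was at 15.2, 16.3 and 12.3 CPM in female and 11.3, 15.7 and 14.5 CPM in male libraries, a log2 fold change of 0.08 (SE 0.15). Tnfrsf13c, the BAFF receptor of mature B cells, was at 0.0407, 0.0872 and 0.235 CPM in female and 0.211, 0.199 and 0.255 CPM in male libraries. Its reads were 3, 6 and 18.4 in female and 16, 12 and 14 in male libraries. Females 1 and 2 lay below the 10 reads of the low-count filter, which Tnfrsf13c passed through the male libraries and female 3. The log2 fold change of -0.84 (SE 0.57), or -1.77 to -0.44 with 1 library left out at a time, is therefore not read as a difference. Tnfrsf17 (BCMA, of plasma cells) had 46.3 reads over the 6 libraries. The B cell markers summed to 29.99 to 34.3 CPM in female and 37.2 to 48.1 CPM in male libraries, and their part in these values was not tested.

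Costimulatory members that act between T cells and antigen-presenting cells covered a wide range of levels. By mean TPM over the 6 libraries Tnfrsf14, Tnfsf14 and Cd40 were the highest (28.0, 14.2 and 13.6 TPM). Tnfsf8 and Tnfsf9 followed at 8.26 and 7.91 TPM with overlapping ranges. Tnfrsf14 (HVEM) was at 13.0, 20.8 and 12.5 CPM in female and 8.92, 14.7 and 13.2 CPM in male libraries, a log2 fold change of 0.33 (SE 0.26), and Tnfsf14 (LIGHT), which binds it and Ltbr, was at 20.3, 15.02 and 20.1 CPM in female and 18.6, 23.1 and 17.2 CPM in male libraries, a log2 fold change of -0.09 (SE 0.16). Cd40, a receptor of B cells, dendritic cells and macrophages, was at 10.2, 16.6 and 9.88 CPM in female and 9.48, 12.3 and 10.9 CPM in male libraries, a log2 fold change of 0.17 (SE 0.22). Female 2 alone lay above the male range for Cd40, and without female 2 and male 1 the estimate was -0.20; that for Tnfrsf14 was -0.13. Cd40lg, its ligand on activated T cells, had at most 4.0 reads in any library.

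The other receptor and ligand pairs of T cell costimulation overlapped between the sexes. Tnfrsf9, an activation-induced receptor, was at 2.54, 5.40 and 3.22 CPM in female and 3.51, 2.27 and 1.146 CPM in male libraries (log2 fold change 0.68, SE 0.44), and its ligand Tnfsf9 was at 5.85, 6.90 and 4.82 CPM in female and 4.96, 4.60 and 5.66 CPM in male libraries (log2 fold change 0.21, SE 0.16). Tnfrsf8 was at 1.46, 1.93 and 0.915 CPM in female and 0.752, 1.13 and 0.873 CPM in male libraries (0.65, SE 0.31), and its ligand Tnfsf8 was at 16.7, 11.8 and 17.2 CPM in female and 22.0, 19.4 and 15.6 CPM in male libraries (log2 fold change -0.32, SE 0.18). Without female 2 and male 1 the estimate was 0.25 for Tnfrsf8, -0.04 for Tnfsf8 and 0.07 for Tnfsf9. Cd27, found on T and B cells, was at 0.339, 0.494 and 0.366 CPM in female and 0.620, 0.448 and 0.637 CPM in male libraries, a log2 fold change of -0.51 (SE 0.28). The remaining pairs were lowly expressed: Tnfrsf4 and Tnfsf4 lay between 0.407 and 1.09 CPM over the 6 libraries, Tnfsf18 between 0.305 and 0.837 CPM, and Tnfrsf18 between 1.21 and 1.53 CPM. Tnfrsf4 and its ligand Tnfsf4 had log2 fold changes of 0.34 (SE 0.33) and 0.27 (SE 0.29), and Tnfrsf18 and its ligand Tnfsf18 had -0.05 (SE 0.19) and -0.05 (SE 0.38). Adjusted p by edgeR was 0.411 or more for all of these.

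Tnfrsf19 (TROY), a receptor of glia and progenitor cells, was the remaining member without overlap. It was at 2.39, 1.92 and 1.91 CPM in female and 1.81, 1.79 and 1.62 CPM in male libraries, so that the gap between the lowest female and the highest male library was small. The log2 fold change was 0.25 (SE 0.17), adjusted p 0.576 by edgeR.

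Female 2 was most often the highest library. Of the 37 tested members 15 (40.5%) had their highest CPM in female 2, against 21.6% of all genes, and 3 had it in male 1 (8.11% against 23.6%). For 7 of them (18.9%, against 9.77% of all genes) female 2 was highest and male 1 lowest, namely Cd40, Tnfrsf8, Tnfrsf11a, Tnfrsf13b, Tnfrsf14, Tnfsf13 and Tnfsf13b. This grouping was read after the values were seen and has no test. The macrophage markers had the same highest and lowest libraries, with 2194 CPM in female 2 and 1125 CPM in male 1. Schwann cell markers had the reverse, lowest in female 2 at 791 CPM and highest in male 1 at 1479 CPM. The myelin genes were likewise lowest in female 2 and highest in male 1, at 11183 and 30978 CPM. The dendritic cell markers did not follow, at 33.4 CPM in female 2 and 44.6 CPM in male 1, and neutrophil markers were at 878 CPM in female 2 and 1257 CPM in male 1. Female 2 was also highest in adipocyte markers, at 1095 CPM against 350 to 717 CPM in the other 5 libraries. The part of these cells, and of the muscle transcripts that both libraries held, was not tested.

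**Figure D5:**
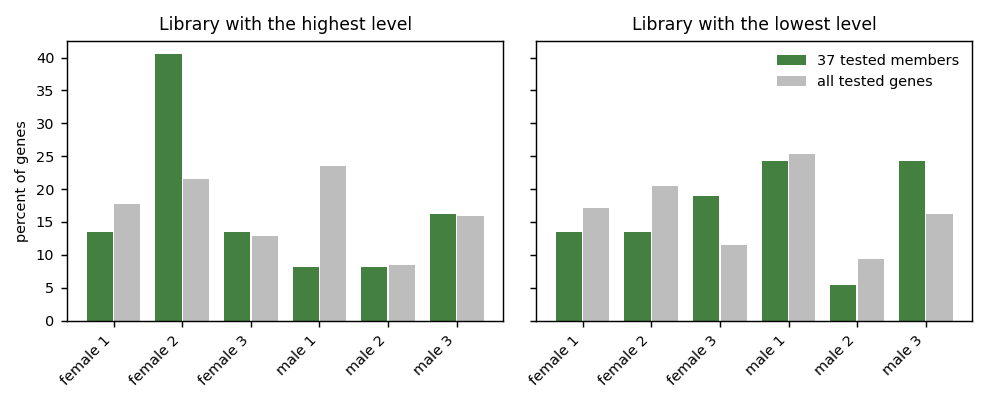
Percent of the 37 tested members (green) and of all tested genes (grey) that had their highest (left) or lowest (right) CPM in each library. Female 2 holds the highest value of 40.5% of the members and 21.6% of all genes.

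Genes that act before and after these receptors, listed together with 6 superfamily genes outside the selection, also gave no call by edgeR. Of these 69 listed genes 68 were tested, and none passed by edgeR in either direction. At an unadjusted p under 0.05 by edgeR, 10 were higher in female and 1 in male nerves (5.21% and 8.50% of all genes). DESeq2, which called 4.09% of all genes, called 3 of the 68: Traf4 and Tnfaip2 higher in female nerves and Adam10 higher in male nerves. For 46 of the 68 the estimate was above 0 (52.8% of all genes) and the median over all 68 was 0.08. All female libraries lay above all male ones for 14, and the reverse held for 4 (8.94% and 11.7% of all genes). These values rest on all 6 libraries, and how far they depend on female 2 and male 1 is not shown.

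All 6 TRAF adaptors had an estimate above 0 (median 0.15), though those of Traf2 and Traf5 were within 1 SE of 0. Traf4 was at 14.7, 13.1 and 16.3 CPM in female and 11.01, 10.5 and 10.8 CPM in male libraries, which did not overlap (0.45, SE 0.10, edgeR adjusted p 0.159). Traf3, a brake on noncanonical NF-kappaB signalling, had 0.18 (SE 0.07). Of 10 death-domain adaptors, kinases and caspases 9 were above 0 (median 0.14); among them Bid had 0.18 (SE 0.08) and Cradd -0.06 (SE 0.11). Of 11 ubiquitin ligases and editors 8 were above 0 (median 0.06), among them Birc3 (0.28, SE 0.09) and the NF-kappaB inhibitor Tnfaip3 (0.57, SE 0.21), with Rbck1 at -0.09 and Cyld at -0.08.

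Kinases and NF-kappaB subunits were above 0 in 9 of 16 cases (median 0.04). Chuk, an IkappaB kinase, had a log2 fold change of 0.22 (SE 0.07) and the subunit gene Rel one of 0.28 (SE 0.12), while Rela and Nfkb1 had -0.08 and -0.07. Of 8 sheddases and their partners 4 were above 0 (median 0.05). Adam17, the protease that releases TNF from the membrane, had 0.14 (SE 0.10) and its partner Rhbdf2 had 0.25 (SE 0.11). Adam10 was at 267, 247 and 291 CPM in female and 345, 348 and 320 CPM in male libraries, without overlap (-0.33, SE 0.09, edgeR adjusted p 0.188), and Timp3, an inhibitor of Adam17, had -0.22 (SE 0.11).

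TNF-induced genes were above 0 in 7 of 12 cases (median 0.05). Tnfaip2 was at 101, 96.4 and 91.2 CPM in female and 75.7, 84.2 and 72.9 CPM in male libraries, without overlap (0.31, SE 0.08, edgeR adjusted p 0.184). Icam1, an adhesion molecule for leukocytes, had 0.19 (SE 0.07), and Tnfaip6 and Sele had -0.39 (SE 0.25) and -0.45 (SE 0.33). Chosen after their values were seen, as the largest estimates of the list, are the cytokine genes Cxcl10 and Il6. Cxcl10 was at 30.1, 66.3 and 27.5 CPM in female and 26.6, 12.8 and 21.8 CPM in male libraries, without overlap and with female 2 far highest (1.02, SE 0.44, edgeR adjusted p 0.393). Il6 was at 32.9, 10.4 and 15.1 CPM in female and 44.7, 16.2 and 34.7 CPM in male libraries, with overlap (-0.71, SE 0.57). Of 6 superfamily genes whose symbols the selection does not cover, 5 were tested and 3 were above 0 (median 0.06). Ngfr, the neurotrophin receptor of repair Schwann cells, was at 95.9, 105 and 113 CPM in female and 106, 117 and 109 CPM in male libraries (-0.08, SE 0.08). Eda2r had 0.42 (SE 0.23), Relt 0.13 (SE 0.11) and Eda -0.21 (SE 0.11).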

How the data were processed

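Paired reads of 100 nt came from stranded, poly-A selected libraries, per the labels' protocols; MultiQC 1.9, Salmon 1.5.2 and Trimmomatic 0.39 were used, per the submitters' processing notes. The authors deposited, per the file headers, estimated counts (not normalized) and TPM for 140789 transcripts; the headers also give each transcript's length. The sources used here state no genome build, annotation release or strand setting. For genes with protein-coding transcripts these were summed, for others all transcripts; sums were rounded. edgeR 4.0.16 (filterByExpr, TMM, quasi-likelihood, robust, no covariate) compared female with male over 18916 genes, adjusted by Benjamini-Hochberg. TMM factors were 0.977 to 1.02. DESeq2 1.42.0 and limma 3.58.1 were alternatives. CPM are TMM-scaled. SE comes from the test. Fits were tested on counts simulated from edgeR's means and dispersions, with 200 changed genes among 18916. edgeR called 13 unchanged genes, DESeq2 52 and limma-voom 9. Of changes of 0.5, 1 and 2 in log2, edgeR recovered 17.9%, 50.7% and 85.9%. DESeq2 recovered 30.4%, 67.1% and 87.3%. Members, lists and the naming rule (members: smallest p, highest TPM, no overlap, paired partners; pathway genes: the 2 of each list with the smallest p in each direction) were chosen with earlier results of these data known. Libraries came from separate pools of animals; no pair agreed within sampling noise (chi-square at least 26.5 per degree of freedom). Sequences came from RefSeq (GRCm38.p6). Shared 31-base stretches were counted on both strands in GENCODE M21, where 87 of 88 member transcripts were found by ID, in other versions. Some genes of the marker and pathway lists are not reported here.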

Additional observations from a re-analysis of the deposited data

Results flagged for a closer look

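Reads outside the protein-coding sums drew attention at Tnfrsf23. The transcript annotated as a target of nonsense-mediated decay, left out of the comparison of the sexes, held 1273.3 reads on average over the 6 libraries; a count of 0 would allow at most 3. It had 1637, 1499 and 1428 reads in female and 1330, 871 and 875 reads in male libraries. Counting all transcripts not annotated as protein coding, no other member had over 57.7% of its reads there in any library.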

How the results depend on the processing

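The members' calls and estimates were recomputed under 18 alternatives. Of the 37 members, 22 kept their sign wherever they had a value; 8 of the 37 had none in 1 to 3 alternatives that filter on level. Members called were 0 in each direction except under DESeq2, with 2 higher in female nerves (Tnf and Tnfrsf23); among pathway genes DESeq2 called 2 on the female side and 1 on the male side. All genes called higher in female nerves (3 in the reported fit) were 1 with upper-quartile scaling, 33 with no filter on low counts, 204 by DESeq2, 6 by limma-voom, 6 without female 2 and male 1, and 0 to 10 leaving out 1 library each. Those higher in male nerves (17) were 122 with no filter, 570 by DESeq2, 9 and 11 by limma on log2 TPM with pseudocounts 1 and 0.1, and 4 to 138 leaving out 1 library. The members' median log2 fold change (0.157) was 0.087 with no filter, 0.066 without female 2 and male 1, and 0.065 to 0.191 leaving out 1 library. The causes were not tested.

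Whether replicate numbers pair the libraries cannot be settled from 3 libraries per sex. Deviations of same-numbered female and male libraries correlated at -0.0914, -0.1629 and 0.0449. Those of differently numbered libraries correlated at -0.0869 to 0.148. With the replicate number as a block, the calls over all genes were 0 on the female side and 4 on the male side, and no member was called.

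Signs turned for Tnfrsf22 by limma on log2 TPM (-0.03203 and -0.03221 with pseudocounts 1 and 0.1). Without female 2 and male 1 they turned for Tnfsf14 (0.0099), Tnfrsf13b (-0.128), Cd40 (-0.198), Tnfrsf25 (0.152), Ltbr (0.0113), Tnfsf10 (-0.148), Tnfrsf14 (-0.127), Tnfrsf11b (0.0159) and Tnfsf18 (0.327). Leaving out 1 library, estimates crossed 0 for Tnfsf14 (-0.168 to 0.057), Tnfrsf13b (-0.040 to 0.193), Cd40 (-0.114 to 0.306), Tnfrsf12a (-0.0075 to 0.058), Tnfrsf25 (-0.395 to 0.037), Tnfsf4 (-0.027 to 0.434), Ltbr (-0.089 to 0.0016), Tnfrsf1a (-0.073 to 0.0057), Tnfsf10 (-0.056 to 0.495), Tnfsf15 (-0.090 to 0.189), Tnfrsf11b (-0.260 to 0.061), Tnfsf18 (-0.490 to 0.233) and Tnfrsf18 (-0.134 to 0.023). Without female 2 and male 1, estimates for Tnfrsf12a, Tnfsf12, Tnfrsf21 and Tnfrsf18 were 0.09, -0.13, -0.22 and -0.22. None of these genes was called in these fits. With 3 pooled libraries per sex, and few reads for Fasl, Tnfrsf13c and the untested members, a missed call does not show that levels are alike.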
